A study of Mus musculus with 36 samples.

Results

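The latent TGF-beta binding proteins (Ltbp1 to Ltbp4), the fibrillins (Fbn1, Fbn2) and the TGF-beta ligands (Tgfb1 to Tgfb3) were followed in the cerebellum and the hippocampus of mice with 2, 1 or 0 intact Pogz alleles. The 9 genes were picked by name from the 24421 genes listed in each table of counts, and all 9 were found in both. The group was formed around Ltbp2, because Ltbp2 was among the most decreased genes of the cerebellum in an earlier analysis of these data. All its cerebellar genotype values are therefore a description. The same holds here for the cerebellar genotype values of the other 8 genes. Whether a fit called a member in the cerebellum is stated as part of that description, and no p is given for it there.

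Poly(A) RNA came from adult C57Bl/6 mice, 3 males and 3 females of each genotype, and each of the 18 mice gave both tissues. Controls carried floxed Pogz alleles and no Cre (Pogzfl/fl), cKO+/- mice were NesCre/+; Pogzfl/+, and cKO-/- mice were NesCre/+; Pogzfl/fl. Cre was driven by the Nestin promoter, which is active in the nervous system lineage, so the dissected tissue also holds cells in which it is not expected to act. No group carried Cre without a floxed allele. In bulk tissue, fewer cells of a type and less RNA per cell cannot be told apart.

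Extracellular TGF-beta is secreted in a latent complex with its own propeptide, and latent TGF-beta binding proteins tether this complex to the matrix until integrins, proteases or thrombospondin release the ligand. Ltbp1, Ltbp3 and Ltbp4 code for proteins that can bind the latent complex, whereas LTBP2 does not bind it and is known as a companion of fibrillin-1 microfibrils, for example in the fibres that hold the lens of the eye. Fibrillins build the microfibrils on which all these proteins are deposited, and they also bind several bone morphogenetic proteins.

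Counts on genes ranged from 21421850 to 32544929 in cerebellar and from 17609321 to 45544188 in hippocampal libraries, and the 9 genes together took 0.0182% to 0.0338% and 0.0145% to 0.0266% of them. Cerebellar granule cell markers, 5 genes in all, summed to between 2701 and 5557 CPM (counts scaled to library size) in the cerebellum, and 8 markers of hippocampal neurons to between 812 and 1354 CPM in the hippocampus. Pogz was lower in both tissues per allele lost, by 0.30 ± 0.046 on the log2 scale (standard error, SE) in the cerebellum and by 0.28 ± 0.020 in the hippocampus. The counts do not separate the deleted exons of Pogz from the others. The hippocampal cKO-/- library of Sample_1160 correlated with the mean of the other libraries at r = 0.894 on log2 CPM, against 0.986 to 0.997 for the others, and was left out of the hippocampal fits; its values are given where they matter. Of the 18 mice, 7 (3 cKO+/- and 4 cKO-/-) carry numbers outside the range from Sample_1120 to Sample_1219, which holds every control, so the number range moves with genotype, and values within the range are given beside the members that separated or were called.

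Ltbp2 lies on the minus strand of chromosome 12 in GRCm38, from 84783212 to 84876495, with 35 listed exons and 6603 exonic bases. Its 5′ end overlaps D030025P21Rik, a gene of 3954 exonic bases on the opposite strand (84875802 to 84879755), and 694 exonic bases belong to both. The sequence before the Ltbp2 start is shown because it also lies inside the span of D030025P21Rik, whose cKO-/- libraries also lay below all controls in the cerebellum. It covers chr12:84876542-84876741 (GRCm38.p6), from 250 to 51 bases before the RefSeq start on the strand of Ltbp2. That start lies a few bases inside the span given above. Capitals mark CAGAC (a SMAD box) or GGGCGG (a GC box) and their reverse complements.
Ltbp2 upstream: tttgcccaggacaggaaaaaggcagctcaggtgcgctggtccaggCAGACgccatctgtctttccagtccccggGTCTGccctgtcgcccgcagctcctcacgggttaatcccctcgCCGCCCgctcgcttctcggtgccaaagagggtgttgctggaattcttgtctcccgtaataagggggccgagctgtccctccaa
The window held 13 CpG dinucleotides, against a median of 4 over 32851 promoter windows of the same length, 2 SMAD boxes and 1 GC box. Of all windows, 35.8% held a SMAD box and 24.6% a GC box on either strand. RefSeq windows were found for 7 of the 9 genes. Ltbp1, Ltbp3 and Tgfb2 also held a SMAD box in at least 1 window and Ltbp4, Fbn1 and Tgfb1 held none, while Fbn2 and Tgfb3 had no entry.

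Levels in control mice were compared first, as reads per kilobase of exon, scaled to library size (RPKM), to see where each gene is used when Pogz is intact. In the control cerebellum Ltbp3 was the highest at 22.5 ± 4.0 RPKM (SD, n = 6), followed by Ltbp2 at 11.3 ± 2.79, Tgfb3 at 8.30 ± 0.881 and Ltbp4 at 6.57 ± 0.504. None of these neighbours overlapped between libraries, although the lowest Ltbp2 value, 9.22 RPKM, was close to the highest of Tgfb3, 9.18 RPKM. Tgfb2 at 2.71 ± 0.257 and Tgfb1 at 2.24 ± 0.229 RPKM overlapped, and so did Ltbp1 at 0.483 ± 0.0783 and Fbn1 at 0.288 ± 0.102 RPKM. Fbn2 was the lowest at 0.0836 ± 0.0276 RPKM, below every Fbn1 value.

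The control hippocampus had another order. Ltbp4 at 13.95 ± 1.09 RPKM (SD, n = 6) and Tgfb2 at 12.3 ± 1.31 overlapped and were above every other member. Ltbp3 followed at 6.18 ± 1.98 and Tgfb3 at 3.24 ± 0.498, and Tgfb3 overlapped with Fbn1 at 1.99 ± 0.332, which overlapped with Tgfb1 at 1.88 ± 0.252 RPKM. Fbn2 at 0.981 ± 0.117 and Ltbp1 at 0.927 ± 0.144 overlapped. Ltbp2 had the lowest median, 0.116 RPKM, with 5 of the 6 libraries below every Ltbp1 value and 1 library, Sample_1129, at 1.02 RPKM.

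**Figure D1:**
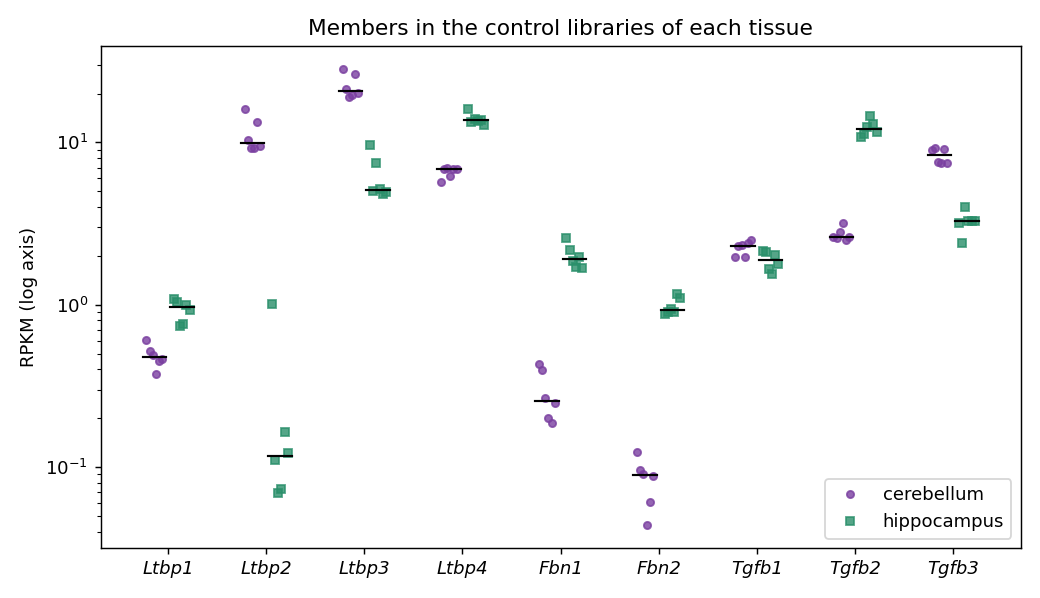
RPKM on a log axis in the 6 control libraries of each tissue, 1 point per library (circles cerebellum, squares hippocampus), with the median as a bar. Ltbp2, Ltbp3 and Tgfb3 sit higher in the cerebellum, while Ltbp1, Ltbp4, both fibrillins and Tgfb2 sit higher in the hippocampus, and the hippocampal Ltbp2 point at 1.02 RPKM is Sample_1129.

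Ltbp2 and Fbn2 entered the comparison between the tissues of the control mice through 1 tissue each. Ltbp2 exceeded 1 CPM in 2 of the 6 hippocampal and Fbn2 in 1 of the 6 cerebellar control libraries, so their differences are a description. Of the other 7 genes, 6 differed (quasi-likelihood test of edgeR, adjusted after Benjamini-Hochberg over 14224 genes, of which 71.9% were called). This share is so high that a call by itself says little about these genes, and the sizes are given. Ltbp2 was 5.47 ± 0.55 lower in the hippocampus on the log2 scale (SE), a fold of 44.2, and Fbn2 was 3.64 ± 0.19 higher. Without Sample_1129 the difference of Ltbp2 was -6.51, and DESeq2 gave -5.53. Among the genes tested, lower in the hippocampus were Ltbp3, with a log2 difference of -1.80 ± 0.17 (adjusted p = 3.38e-07, edgeR), and Tgfb3, with -1.27 ± 0.11 (adjusted p = 1.42e-07, edgeR). Higher there were Fbn1 by 2.88 ± 0.20, Tgfb2 by 2.28 ± 0.08, Ltbp4 by 1.18 ± 0.07 and Ltbp1 by 1.03 ± 0.14, with adjusted p between 1.97e-11 for Tgfb2 and 1.32e-05 for Ltbp1 (edgeR). Tgfb1, the ligand best known from immune cells and microglia, had a log2 difference of -0.16 ± 0.11 and did not pass (adjusted p = 0.193, edgeR).

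The ligands thus had opposite leaders in control tissue. Tgfb3 made up 62.5% ± 3.46 (SD, n = 6) of the summed RPKM of the 3 ligands in the cerebellum and 18.6% ± 2.38 in the hippocampus, and Tgfb2 made up 20.5% ± 2.81 and 70.5% ± 2.73. The ranges of both did not overlap between the tissues. Cerebellar libraries had 13.2 ± 0.698 RPKM over all ligands and hippocampal ones 17.4 ± 1.35 RPKM.

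In the cerebellum Ltbp2 fell in steps with Pogz alleles. Control libraries had 60.9, 65.9 and 106 CPM as the lowest, median and highest value, cKO+/- libraries 24.8, 33.7 and 43.1, and cKO-/- libraries 6.93, 12.3 and 17.8 CPM. Neighbouring genotypes did not overlap. Of all genes tested, 0.413% were lower in this way in cKO+/- than in control mice and 1.9% in cKO-/- than in control mice. Ltbp2 rested on raw counts from 1613 to 2787 in controls down to 204 to 501 in cKO-/- mice. The means were 74.6 ± 18.4 (SD, n = 6), 33.1 ± 6.74 and 12.6 ± 4.10 CPM, so that cKO+/- mice kept 44.3% and cKO-/- mice 16.9% of the control mean. Sample_1129 (106 CPM) and Sample_1190 (88.6 CPM) raised that mean, as the other controls had 60.9 to 68.7 CPM. Their libraries correlated with the mean of the other cerebellar libraries at r = 0.988 and 0.984, against 0.995 to 0.997 for the other controls. Mutant libraries went down to 0.984 (Sample_1385). On the log2 scale the cKO+/- mean lay 45.9% of the way from control to cKO-/-.

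**Figure D2:**
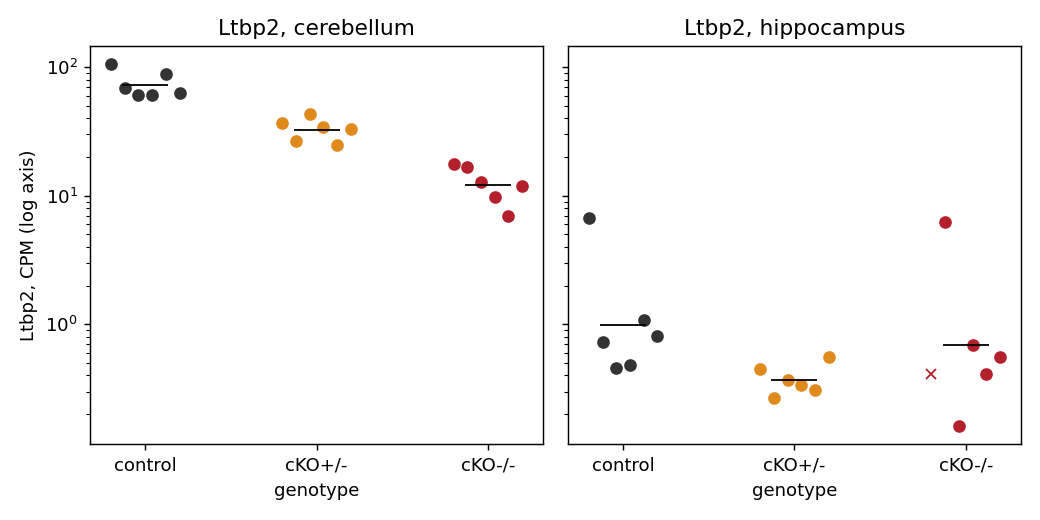
Ltbp2 in CPM on a log axis by genotype, 1 point per library, with the geometric mean of the fitted libraries as a bar. In the cerebellum the 3 genotypes do not overlap; in the hippocampus all libraries lie at or below 1.09 CPM except Sample_1129 (control, 6.72 CPM) and Sample_1219 (cKO-/-, 6.20 CPM), and the cross is Sample_1160, left out of the fits.

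Per allele lost, Ltbp2 had a log2 fold change of -1.28 ± 0.10 (SE), a factor of 2.43, the fourth lowest of 14027 genes tested in the cerebellum. Leaving out each mouse in turn gave -1.35 to -1.21, and a covariate for the number range gave -1.16. Within the number range, cKO+/- libraries had 26.4, 36.6 and 43.1 CPM and the cKO-/- libraries 16.7 and 17.8 CPM, again apart from each other and from all controls. In pairs of genotypes, the log2 differences were -1.18 ± 0.20 for cKO+/- against control, -2.57 ± 0.21 for cKO-/- against control and -1.39 ± 0.21 for cKO-/- against cKO+/-, and with the covariate the first of these was -0.94. The fits of these pairs called 0.342%, 12.7% and 0.413% of all genes, from which nothing is read for Ltbp2, since the group was formed on this contrast.

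Granule cell markers in the same libraries summed to 4342 to 5162 CPM in controls, 2930 to 5557 in cKO+/- and 2701 to 5374 in cKO-/- mice, and the 6 Purkinje cell markers to 6973 to 10630, 7800 to 13160 and 7712 to 16370 CPM. None of their genes was at 0. Both lists overlapped between all genotypes, but the medians of the granule cell sums were 4779, 4692 and 3874 CPM, and 4 of the 6 cKO-/- libraries, all outside the number range, lay below every control (Sample_936 at 4144, Sample_1371 at 3036, Sample_1379 at 3603 and Sample_1385 at 2701 CPM). Their part in the Ltbp2 result was not tested.

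D030025P21Rik had the same direction as Ltbp2, at levels too low to pass the filter. It had 0.832 to 2.46 CPM in cerebellar controls, 0.540 to 1.09 in cKO+/- and 0.0680 to 0.491 in cKO-/- mice, from 26 to 65 and down to 2 to 12 counts. The cKO-/- libraries were below all controls, while cKO+/- libraries overlapped with controls. Without stated use of strand, reads of the shared exonic bases cannot be assigned to either gene.

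The other genes around Ltbp2 gave different values. Within 250 kb of it, 8 genes were tested in both tissues (Abcd4, Syndig1l, Npc2, Isca2, Arel1, Fcf1, Ylpm1 and Prox2), and 0 were called in either allele effect by edgeR. Their cerebellar log2 fold changes per allele ranged from -0.19 (Prox2, adjusted p = 0.188) to 0.12 (Npc2, adjusted p = 0.0957), with the smallest adjusted p, 0.0884, for Abcd4 (edgeR). Npc2, which codes for a lysosomal cholesterol transporter, lies 10100 bases away, and Isca2, a mitochondrial iron-sulphur cluster gene, 8123 bases away.

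Of all 9 members, 4 were called in the cerebellar allele effect, 3 lower and 1 higher, against 13.7% of all genes tested in either direction, 6.55% lower and 7.11% higher. Since the group was formed around 1 of them, nothing is read from this share. The median log2 fold change was 0.04 over the 9 genes and 0.0009 over all genes tested.

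**Figure D3:**
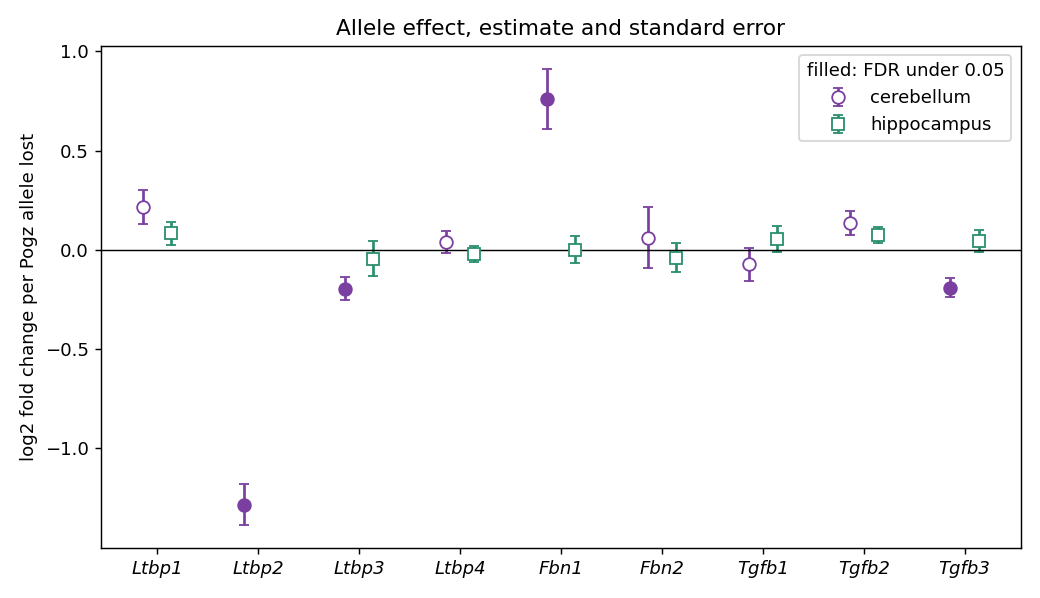
Log2 fold change per Pogz allele lost with its SE, for each member in the cerebellum (circles) and hippocampus (squares), filled where the FDR was under 0.05. In the cerebellum Ltbp2 stands at -1.28 and Fbn1 at 0.76, while the largest hippocampal value is 0.08 (Ltbp1); Ltbp2 was not tested in the hippocampus.

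The paralogs of Ltbp2 did not share the size of its decrease. Ltbp3, the most abundant of the 4, had 98.9, 107 and 148 CPM in controls (lowest, median, highest), 79.1, 97.0 and 124 in cKO+/- and 70.8, 93.0 and 98.3 in cKO-/- mice. All cKO-/- libraries were below all controls, as were those of 1.9% of all genes tested, while cKO+/- libraries overlapped with both. Its log2 fold change per allele was -0.20 ± 0.06 (SE), which was called over all mice but not without Sample_1129 (-0.14), Sample_1190 (-0.17), Sample_1371 (-0.18) or Sample_1385 (-0.17), and not with the covariate for the number range (-0.15). Within the range, cKO+/- libraries had 87.3 to 108.2 and the 2 cKO-/- libraries 91.99 and 96.7 CPM, against 79.1 to 124 and 70.8 to 98.3 CPM outside it.

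Ltbp1 and Ltbp4 were not called. Ltbp1 had 3.05 to 4.96 CPM in controls, 2.94 to 5.76 in cKO+/- and 4.15 to 7.03 in cKO-/- mice, which overlapped, and its log2 fold change was 0.22 ± 0.08 (SE). Ltbp4 had 32.0 to 39.2, 37.5 to 46.9 and 29.8 to 52.2 CPM, with the widest spread in cKO-/- mice and a log2 fold change of 0.04 ± 0.06. The latter was -0.02 with the covariate for the number range and -0.01 without the 3 libraries that hold choroid plexus genes.

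The makeup of the family changed with these values. Ltbp2 made up 27.4% ± 2.22 (SD, n = 6) of the summed RPKM of the 4 Ltbp genes in control cerebella, 15.6% ± 2.10 in cKO+/- and 7.16% ± 2.20 in cKO-/- mice, without overlap between genotypes. Ltbp3 made up 54.9% ± 1.11, 59.4% ± 3.30 and 64.3% ± 2.99. The sum itself went from 40.8 ± 6.55 RPKM in controls to 31.9 ± 4.27 with 1 allele lost and 26.6 ± 2.88 RPKM with both lost. The hippocampal sum was 21.3 ± 3.38, 22.0 ± 2.72 and 20.2 ± 1.41 RPKM (n = 6, 6 and 5), with Ltbp4 at 66.1% ± 4.82, 68.4% ± 1.27 and 66.4% ± 6.14 of it.

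**Figure D4:**
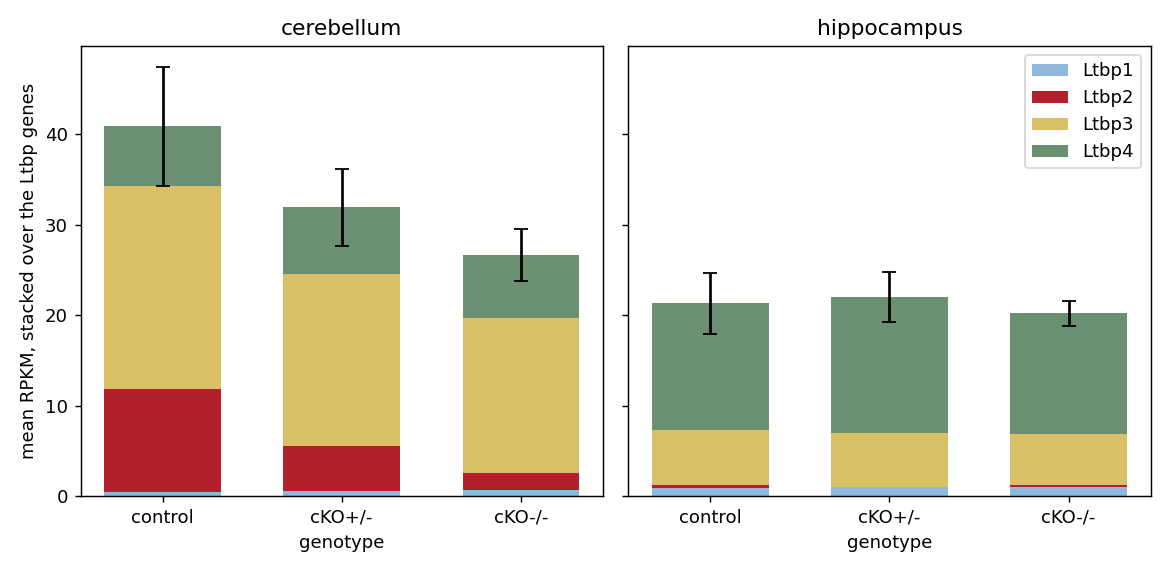
Mean RPKM of Ltbp1 to Ltbp4 stacked by genotype, with bars for the SD of the sum over libraries. In the cerebellum the Ltbp2 layer shrinks from 11.3 to 5.01 and 1.91 RPKM and the sum from 40.8 to 26.6 RPKM, while in the hippocampus the sums lie between 20.2 and 22.0 RPKM with Ltbp4 as the largest layer.

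Fbn1, the main fibrillin of adult microfibrils, moved the other way. Control cerebella had 1.86, 2.54 and 4.28 CPM (lowest, median, highest), cKO+/- 2.83, 3.54 and 10.3, and cKO-/- 4.73, 9.09 and 10.5 CPM. All cKO-/- libraries were above all controls, as were those of 2.67% of all genes tested, while cKO+/- libraries spanned both. The log2 fold change per allele was 0.76 ± 0.15 (SE), from 0.70 to 0.86 when each mouse was left out.

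The rise of Fbn1 ran along with the number range and with the sum of meningeal markers. Within the range, the 3 cKO+/- libraries had 2.83 to 3.28 CPM, inside the spread of controls, and the 2 cKO-/- libraries 4.73 and 5.58 CPM. Outside it, the cKO+/- libraries had 3.81, 6.37 and 10.3 CPM and the 4 cKO-/- libraries 8.60 to 10.5 CPM. With the covariate the log2 fold change was 0.42 and the call was lost, while without the 3 libraries with choroid plexus genes it was 0.73 and the call was kept. The 10 markers of meningeal fibroblasts summed to 241 to 326 CPM in controls, 308 to 498 in cKO+/- and 322 to 630 in cKO-/- mice, with none at 0. The 6 markers of hindbrain and cerebellar nuclei neurons summed to 3.33 to 23.0, 13.7 to 123 and 18.3 to 131 CPM, with up to 4 of them at 0 in a library of each genotype. Medians of the meningeal sums were 267, 396 and 598 CPM in control, cKO+/- and cKO-/- mice. Those of the neuron sums were 15.2, 39.6 and 35.3 CPM, with no rise from cKO+/- to cKO-/- mice. The part of these cells in the Fbn1 result was not tested.

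**Figure D5:**
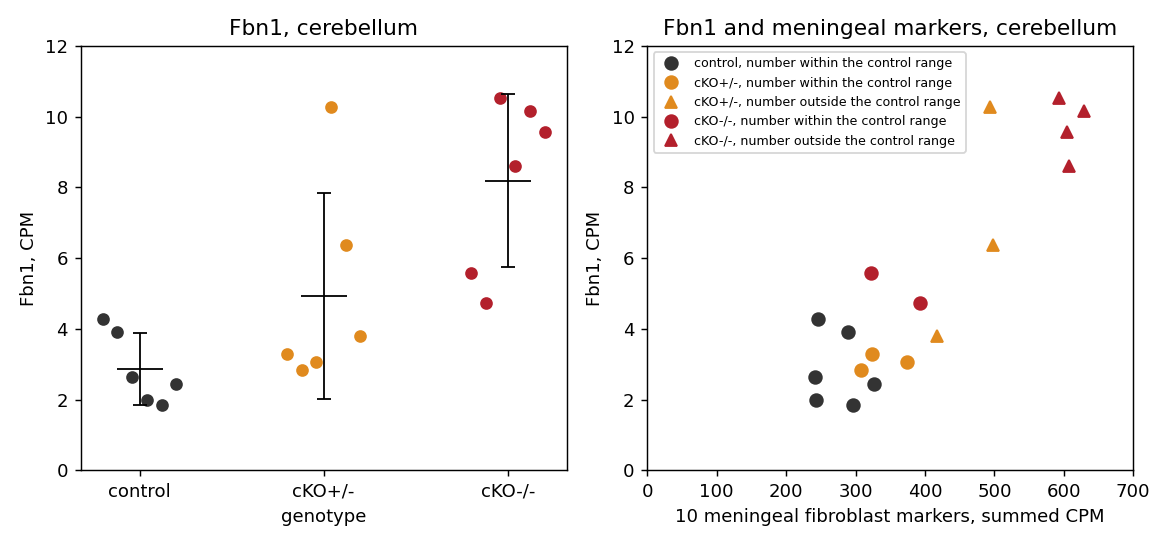
Left, Fbn1 in CPM by genotype in the cerebellum, 1 point per library, with mean and SD; right, the same values against the summed CPM of 10 meningeal fibroblast markers, with triangles for mice numbered outside the range of the controls. The 4 cKO-/- triangles lie at 8.60 to 10.5 CPM with the highest marker sums, and the cKO-/- circles at 4.73 and 5.58 CPM.

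Fbn2, a fibrillin known mainly from the embryo, was near the limit of detection in the cerebellum, with 12 counts in the lowest library. It had 0.461 to 1.29 CPM in controls, 0.793 to 2.48 in cKO+/- and 0.536 to 1.199 in cKO-/- mice, all overlapping, and a log2 fold change of 0.06 ± 0.15. A change of the size seen for Fbn1 lay outside its 95% interval, -0.24 to 0.37.

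Of the ligands, Tgfb3, the leading one of the cerebellum, had 25.1 to 31.1 CPM in controls, 22.3 to 26.6 in cKO+/- and 16.6 to 25.8 in cKO-/- mice. Its log2 fold change was -0.19 ± 0.05 (SE), and the groups overlapped. The call was kept when any mouse was left out, from -0.22 to -0.16, and lost with the number covariate (-0.14). Within the number range, cKO+/- libraries had 23.2 to 24.5 and the 2 cKO-/- libraries 24.6 and 25.8 CPM, and outside it 22.3 to 26.6 and 16.6 to 21.7 CPM, so the lowest values came from outside the range. Tgfb2 had a log2 fold change of 0.14 ± 0.06 and Tgfb1 of -0.07 ± 0.08, both not called. Tgfb2 passed only when Sample_1379 was left out (0.17). Tgfb3 lies on chromosome 12 too, 1180248 bases from Ltbp2 with 20 listed genes between them.

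In the hippocampus Ltbp2 was near the limit of detection. Of the 17 fitted libraries, 15 had 0.162 to 1.09 CPM, on 4 to 44 counts, and the others were Sample_1129 (control) with 6.72 CPM on 241 counts and Sample_1219 (cKO-/-) with 6.20 CPM on 214 counts. Sample_1160 had 0.411 CPM. Controls had a median of 0.766, cKO+/- of 0.352 and cKO-/- of 0.554 CPM, and all genotypes overlapped. The gene did not pass the filter, and without a filter its log2 fold change per allele was -0.05 ± 0.46 (SE, adjusted p = 0.979, edgeR).

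Between pairs of genotypes, the exact 2-sided permutation test of Ltbp2 gave p = 0.00866 for control against cKO+/- (means 1.71 ± 2.46 and 0.381 ± 0.107 CPM, SD, n = 6 and 6) and p = 0.589 for control against cKO-/- (1.60 ± 2.58 CPM, n = 5). Without Sample_1219 the second gave p = 0.0952, with 0.454 ± 0.226 CPM in 4 cKO-/- mice (exact permutation test). Without Sample_1129 the first gave p = 0.0173, with 0.711 ± 0.259 CPM in 5 controls (exact permutation test). Control against cKO+/- was 1 of 27 such tests over the 9 genes and 3 pairs, of which 3 fell under 0.05 without adjustment. After Benjamini-Hochberg adjustment this pair had 0.234, and 0.351 without Sample_1129 (exact permutation test). The unfiltered edgeR fit gave an adjusted p of 0.45 for the same pair. Each cerebellar library exceeded the hippocampal library of the same mouse, by 2.69 times in Sample_1219 to 134 times in Sample_1170.

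Both hippocampal libraries with Ltbp2 above 6 CPM held choroid plexus and meningeal markers, and of the pair only Sample_1129 held cerebellar ones as well. Sample_1129 had 49.4 CPM of Gabra6, 71.5 of Cbln3 and 19.2 of Pcp2, genes of cerebellar granule and Purkinje cells, against at most 1.09, 1.72 and 0.894 CPM in the 15 other libraries. Sample_1219 had 0.0290, 0.522 and 0.666 CPM of these genes. Of the 15 others, the control Sample_1190 had the highest Ltbp2 (1.09 CPM) and the highest Gabra6 (1.09 CPM), with 1.68 CPM of Cbln3. The highest Cbln3 of the 15 was in the cKO+/- Sample_1433 (1.72 CPM), with 0.210 CPM of Gabra6 and Ltbp2 at only 0.336 CPM. The 8 choroid plexus markers summed to 4939 CPM in Sample_1129 and 1135 in Sample_1219, but also to 2394 in Sample_1170 and 5017 in Sample_1385, whose Ltbp2 was at 0.454 and 0.412 CPM. Meningeal markers summed to 361 and 334 CPM in Sample_1129 and Sample_1219, and to 470 in Sample_1385.

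The genes most like Ltbp2 within genotypes differed between the tissues. Likeness was the Pearson r of deviations of log2 CPM from the genotype means, over 18 cerebellar and 17 hippocampal libraries, which share depth and dissection with each other. In the hippocampus the 8 closest genes were Tnc, Col1a1, Zfp703, Thbs1, Col6a3, Dnajb1, Slc3a2 and Crabp1, with r from 0.918 for Tnc to 0.809 for Crabp1. Tnc (tenascin C), Col1a1 and Col6a3 (collagens) and Thbs1 (thrombospondin 1, an activator of latent TGF-beta) are matrix genes. Tnc was at 33.6 CPM in Sample_1129 and 50.0 in Sample_1219, against 6.53 to 16.3 in the others, and Thbs1 at 21.01 and 36.9 against 2.26 to 14.7 CPM. The part of those 2 libraries in r was not tested.

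In the cerebellum the 8 closest genes were Rcor3, Clcn1, Kcnt1, Ccdc142, Abca7, Cpsf6, Plekha5 and Celsr3, with r from 0.939 for Rcor3 to 0.910 for Celsr3. They include a chloride channel (Clcn1), a sodium-activated potassium channel (Kcnt1), a subunit of the RNA cleavage factor (Cpsf6) and a cadherin of planar polarity (Celsr3), and no matrix gene named here. Of the other members, Ltbp3 was the closest in the cerebellum with r = 0.717, at rank 544 of 14026 genes, and Tgfb1 the farthest with r = -0.652. The part in these r of Sample_1129 and Sample_1190, whose Ltbp2 lay above the other controls, was not tested.

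The other 8 members were measured well in the hippocampus, and 0 of them were called in the allele effect by edgeR, against 4.44% of 14339 genes tested. None had an unadjusted p under 0.05, and DESeq2 called 0 as well. The smallest adjusted p was 0.336, for Tgfb2 with a log2 fold change of 0.07 ± 0.04 (SE, edgeR). For Ltbp3 the log2 fold change was -0.04 ± 0.09, with a 95% interval of -0.21 to 0.13. Fbn1 had 0.00 ± 0.07, with an interval of -0.13 to 0.14, and Tgfb3 had 0.04 ± 0.06, with an interval of -0.07 to 0.16.

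Libraries overlapped between genotypes for every member, while 0.523% of all genes tested did not overlap between cKO+/- and control and 3.65% between cKO-/- and control. Fbn1 had 16.7 to 25.4 CPM in controls, 13.1 to 21.2 in cKO+/- and 14.8 to 24.6 in cKO-/- mice, and Ltbp3 had 25.0 to 50.2, 24.3 to 37.8 and 21.6 to 41.7 CPM. Tgfb2, the leading ligand there, had 51.3 to 68.3 CPM in controls, 48.1 to 64.9 in cKO+/- and 60.7 to 71.4 in cKO-/- mice, and Ltbp4 had 72.0 to 89.7, 69.6 to 100.3 and 72.0 to 78.9 CPM. In pairs of genotypes, 0 of 8 members were called by edgeR or DESeq2 in any of the 3 pairs, in which 0.0349%, 4.87% and 0.718% of all genes were called. Unadjusted p fell under 0.05 for 1 member in cKO+/- against control, 0 in cKO-/- against control and 3 in cKO-/- against cKO+/-, where Fbn2 had the largest log2 difference with -0.34 ± 0.12 (adjusted p = 0.181, edgeR). Sample_1160, left out of these values, had 8.24 CPM of Fbn1, 3.46 of Fbn2 and 32.7 of Tgfb2, each below all other hippocampal libraries. With it, 0 members were called as well.

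Whether the allele effect differed between the tissues was tested in 1 fit over 35 libraries, in which 1.63% of 14870 genes were called. Ltbp2 entered this fit through its cerebellar libraries, so its difference is a description. Of the other 8 members, 1 was called: the log2 fold change of Fbn1 per allele was 0.77 ± 0.17 lower in the hippocampus than in the cerebellum (SE). Without libraries with choroid plexus genes it was 0.83 lower, and with the covariate for the number range it was 0.39 lower and the call was lost. Tgfb3 had a difference of 0.22 ± 0.07 and did not pass (adjusted p = 0.116, edgeR). For Ltbp2 the difference was 1.24 ± 0.45, or 1.84 ± 0.35 without Sample_1129 and 0.77 ± 0.30 without the libraries that hold choroid plexus genes. The cerebellar part of these values comes from the contrast around which the group was formed.

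Sex had no called effect on any member in either tissue, with 0 of 9 in the cerebellum and 0 of 8 in the hippocampus by edgeR and by DESeq2 and 0 at an unadjusted p under 0.05, against 0.0499% and 0.907% of all genes called. The largest differences of males from females were 0.47 ± 0.24 on the log2 scale for Fbn2 in the cerebellum and -0.29 ± 0.14 for Ltbp3 in the hippocampus (SE, adjusted p = 1.0 and 0.314, edgeR). Cerebellar Ltbp2 differed between the sexes by 0.10 ± 0.16.

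Genes that act with these members were followed in 6 lists of 77 genes, of which cerebellar fits tested 70 and hippocampal fits 67. Of the 70, 21 were called, against 13.7% of all genes, and of the 67, 5 were called, against 4.44%. The lists were chosen with earlier results of these data known, so these shares are a description and nothing is read from them. The adjusted p values of their genes below carry the same limit. Col1a1 and Col1a2 are both in the list of target genes and among the meningeal markers above, whose sums rose from controls to cKO-/- mice.

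Of genes that keep TGF-beta latent or release it, 5 were higher and 2 lower of 15 tested in the cerebellum, with a median log2 fold change of 0.15 (0.0009 over all genes). Mmp14, a membrane-bound matrix metalloproteinase, rose by 0.44 ± 0.07 per allele (SE, adjusted p = 0.000907, edgeR), from 16.2 ± 1.01 CPM in controls to 29.8 ± 7.06 in cKO-/- mice (SD, n = 6 and 6). Emilin1, whose protein limits the processing of pro-TGF-beta, rose by 0.46 ± 0.10 (adjusted p = 0.00561, edgeR). Itgb1 rose by 0.13 ± 0.04 and Itgb5, a subunit of an integrin that binds the latent complex, fell by 0.13 ± 0.04 (adjusted p = 0.0216 and 0.0395, edgeR). The count of 7 was 2 without Sample_936, Sample_1190 or Sample_1385, and 2 without the 3 libraries with choroid plexus genes. It was 4 with no filter on low counts. Leaving out any of these 3 mice ended the calls of Itgb1 and Itgb5, and that of Itgb5 ended also without Sample_1155, Sample_1170, Sample_1172, Sample_1192, Sample_1371 or Sample_1379 (adjusted p up to 0.0561 and 0.0962, edgeR).

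In the hippocampus 1 of the 15 was higher and 1 lower. Mmp14 rose by 0.33 ± 0.07 (adjusted p = 0.0103, edgeR), from 12 ± 1.48 CPM in controls to 18.7 ± 2.30 in cKO-/- mice (SD, n = 6 and 5). Bmp1, a protease that cleaves Ltbp1 and procollagen, fell by 0.23 ± 0.05 (adjusted p = 0.0125, edgeR), and had -0.33 in the cerebellum (adjusted p = 0.0411, edgeR). That cerebellar call was lost without Sample_936, Sample_1190 or Sample_1385. It was also lost without the libraries with choroid plexus genes and with the covariate for the number range. Both hippocampal calls held when any mouse was left out. They ended without the libraries with choroid plexus genes, a fit with fewer libraries. There Mmp14 had 0.33 and Bmp1 -0.17 (adjusted p = 0.113 and 0.207, edgeR). Mmp14 was thus called higher in both tissues of the same mice.

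The lists of receptors and SMAD proteins are short. With 13.7% of all genes called in the cerebellum and 4.44% in the hippocampus, their counts say little by themselves. In the cerebellum, 0 of 6 receptor genes and 0 of 10 SMAD pathway genes were called by edgeR or DESeq2, with median log2 fold changes of 0.09 and 0.04. In the hippocampus, 1 receptor gene, Eng (endoglin, of endothelial cells), rose by 0.23 ± 0.06 (adjusted p = 0.0274, edgeR). This call was lost without any 1 of Sample_1155, Sample_1170, Sample_1172, Sample_1192, Sample_1371, Sample_1379 or Sample_1385 (adjusted p up to 0.0876, edgeR). Without the libraries with choroid plexus genes the log2 fold change was 0.19 and the call was lost (adjusted p = 0.244, edgeR). The 6 endothelial markers summed to 109 to 127 CPM in hippocampal controls, 91.5 to 157 in cKO+/- and 121 to 189 in cKO-/- mice. Their medians were 122, 132 and 170 CPM. The part of endothelial cells in the Eng result was not tested. Of the 10 SMAD pathway genes, 0 were called there by edgeR, 1 by DESeq2 and 2 without Sample_936.

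Of 12 tested genes known to respond to TGF-beta, 5 were higher and 1 lower in the cerebellum, with a median log2 fold change of 0.14, and 0 were called in the hippocampus by edgeR or DESeq2. Col1a2 rose by 0.45 ± 0.06 per allele and Col1a1 by 0.52 ± 0.09, the chains of type I collagen (adjusted p = 4.21e-05 and 0.00126, edgeR), and Fn1 (fibronectin) rose by 0.30 ± 0.06 (adjusted p = 0.00457, edgeR). Cdkn1a, which codes for the cell cycle inhibitor p21, fell by 0.30 ± 0.07 (adjusted p = 0.0113, edgeR). The cerebellar count was 6 whichever mouse was left out. In the hippocampus Col1a2 and Col1a1 had 0.54 and 0.50 and did not pass (adjusted p = 0.126 and 0.23, edgeR), and without Sample_1129, 3 genes of the list were called.

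Of 23 tested genes of microfibrils and elastic fibres, 3 were higher and 2 lower in the cerebellum, with a median log2 fold change of 0.10. Adamtsl3 rose by 0.74 ± 0.16, Thsd4, which promotes the deposition of fibrillin-1, by 0.44 ± 0.10 and Adamtsl4 by 0.33 ± 0.10, and Emilin3 fell by 0.38 ± 0.10 (adjusted p = 0.00614, 0.00991, 0.0347 and 0.022, edgeR). The count of 5 was 3 without Sample_936, Sample_1172, Sample_1190 or Sample_1385, 9 without Sample_1160 or Sample_1219, and 8 by DESeq2. The call of Emilin3 ended without Sample_1371 and that of Adamtsl4 without Sample_936, Sample_1155, Sample_1170, Sample_1172, Sample_1190, Sample_1192 or Sample_1385 (adjusted p up to 0.0513 and 0.111, edgeR). In the hippocampus 1 of 20 was called, Adamts17, a metalloproteinase, which fell by 0.25 ± 0.05 (adjusted p = 0.0132, edgeR), and DESeq2 called 2. This call ended without the libraries with choroid plexus genes, where the log2 fold change was -0.26 (adjusted p = 0.102, edgeR).

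Of 4 tested bone morphogenetic protein and growth differentiation factor ligands that fibrillins bind, 3 were higher in the cerebellum. Bmp5 rose by 0.63 ± 0.13, from 17.9 ± 4.24 CPM in controls to 38.4 ± 12.1 in cKO+/- and 43.3 ± 13.7 in cKO-/- mice (SE, then SD, n = 6 each; adjusted p = 0.00342, edgeR). Bmp7 rose by 0.35 ± 0.09 and Bmp4 by 0.31 ± 0.10 (adjusted p = 0.0148 and 0.0443, edgeR). The call of Bmp4 held only when Sample_1160, Sample_1176, Sample_1219 or Sample_1433 was the mouse left out (adjusted p up to 0.122 over all, edgeR). It ended without the libraries with choroid plexus genes, where the log2 fold change was 0.27 (adjusted p = 0.11, edgeR). Bmp5 also rose in the hippocampus, by 0.49 ± 0.13 (adjusted p = 0.0287, edgeR), from 0.842 ± 0.385 CPM in controls to 1.64 ± 0.507 in cKO-/- mice (SD, n = 6 and 5). This call was lost without any 1 of Sample_1155, Sample_1172, Sample_1190, Sample_1192, Sample_1219, Sample_1371, Sample_1379 or Sample_1385 (adjusted p up to 0.105, edgeR). It was also lost with all 18 libraries (adjusted p = 0.341, edgeR). Without the libraries with choroid plexus genes the log2 fold change was 0.62 and the call was lost (adjusted p = 0.0734, edgeR).

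With the covariate for the number range, 4 of the genes of these lists named above kept their cerebellar call: Mmp14 (0.28), Col1a2 (0.33), Col1a1 (0.31) and Bmp5 (0.71). None of those named in the hippocampus kept it there. What the animal numbers stand for is not stated in the sources used here.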

How the data were processed

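The deposited tables hold whole-number counts per gene for 36 libraries. The authors made them from poly(A) RNA with STAR (version 250a in the submitters' processing notes). The notes name mm9, while the gene coordinates of the tables lie on GRCm38, and use of strand is not given in the sources used here. The deposited exon lengths (in bases) were used for RPKM.

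Groups were taken from the labels. Fits took genes that exceeded 1 CPM in 6 or more libraries and used the quasi-likelihood F-test of edgeR 4.0.16 (R 4.3.3, TMM factors, sex as a covariate), with the number of Pogz alleles lost as a number or the genotype as a factor, and Benjamini-Hochberg adjustment over all genes tested at an FDR of 0.05. DESeq2 1.42.0, other scaling, no filter, no sex term, a covariate for the number range, all 18 hippocampal libraries and leaving out each mouse were alternatives. The study left out 1 RNA library as an outlier without naming it in the sources used here, and the hippocampal library of Sample_1160 was left out here. Both tissues came from the same mice, so the pairing was given by the animal, and fits across tissues were repeated with a block for it. CPM used TMM factors, and exact 2-sided permutation tests used scipy 1.17.1. The fits were tested on simulated data.

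The members, the 6 pathway lists and the 12 lists of cell type markers were chosen with earlier results of these data known. Named were all members, up to 4 called genes per pathway list and tissue with the smallest adjusted p, genes within 250 kb of Ltbp2, and the 8 genes most like it. The fits without libraries above 500 CPM of choroid plexus markers were added after seeing the data.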

Additional observations from a re-analysis of the deposited data

Results flagged for a closer look

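Of 54 groups of 5 or 6 libraries checked over the 9 genes, 3 held a library far from the others by Dixon's test, which flags about 1 in 20 groups by chance. Ltbp2 in the hippocampus stood at 6.20 CPM in Sample_1219, against 0.162 to 0.689 CPM in the other cKO-/- libraries, and at 6.72 CPM in Sample_1129, against 0.454 to 1.09 CPM in the other controls. Ltbp4 stood at 89.7 CPM in the control hippocampus of Sample_1129, against 72.0 to 78.4 CPM.

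The allele effect on Fbn1 differed between the tissues by -0.77 on the log2 scale (hippocampus minus cerebellum, per allele lost), by the interaction term of a fit over both tissues. With the covariate for the number range it was -0.39 and not called (adjusted p = 0.943, edgeR). Its cerebellar part is among the values given as a description.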

How the results depend on the processing

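With a covariate for the number range, 1 member in place of 4 was called in the cerebellar allele effect, 0 in place of 1 for cKO+/- against control, 1 in place of 4 for cKO-/- against control, and 0 in place of 1 for the difference between tissues. When each mouse was left out, 1 to 2 members were called in the last of these, with 2 without Sample_1129. These counts include Ltbp2, around which the group was formed, and Ltbp2 was the 1 call for cKO+/- against control. The share of all genes called with the covariate is not set beside them, so nothing is read from the drop. The cause was not tested.

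With the replicate block for the animal, the Ltbp2 tissue difference was -5.84 and the Fbn1 difference in allele effect -0.81, and the block changed no call of a member.

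Directions turned for members that were not called. With the covariate, log2 fold changes were -0.020 (Ltbp4) and -0.13 (Fbn2) in the cerebellum and -0.002252 (Ltbp1), 0.029 (Fbn2) and -0.006947 (Tgfb1) in the hippocampus. Without choroid plexus libraries Ltbp4 had -0.011 in the cerebellum and 0.016 in the hippocampus. Hippocampal Fbn1 had -0.00103 with no filter, -0.004333 with no sex term, -0.074 with all 18 libraries and -0.069 without choroid plexus libraries. When each mouse was left out, cerebellar values ran from -0.008455 to 0.074 (Ltbp4) and from -0.014 to 0.15 (Fbn2), and hippocampal values from -0.10 to 0.021 (Ltbp3), -0.035 to 0.0001663 (Ltbp4), -0.045 to 0.042 (Fbn1), -0.076 to 0.026 (Fbn2) and -0.004754 to 0.082 (Tgfb3). Ltbp2 on at most 44 counts in 15 hippocampal libraries limits what can be said of it there.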
